A study of Mus musculus with 4 samples.

Results

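A set of 9 interferon-induced antiviral effector genes was followed in mouse mammary cancer cells labelled Pak1-/- or Pak1+/+: Ifit1, Ifit2, Ifit3, Rsad2, Mx1, Mx2, Isg20, Bst2 and Eif2ak2. They are 9 of 31896 gene names on an Agilent mouse array read in 1 colour (Cy3), whose probes are 60 bases long, and 10 probes carried their names. The genes were selected on the difference between the Pak1-/- and Pak1+/+ arrays described here, so their differences are given as a description and were not tested. The 4 samples were cells derived from breast tumours of MMTV-Neu animals, a model that expresses the oncogene Neu (Her2) in mammary epithelium from the promoter of mouse mammary tumour virus. The group of 2 Pak1-/- samples came, per the labels, from mice that carried MMTV-Neu and a Pak1 knockout, and the group of 2 Pak1+/+ samples came from mice that carried MMTV-Neu and wild-type Pak1, with 2 different tumours in each group. Both groups were grown in low-calcium medium with horse serum, serum starved for 3 h and then given EGF for 15 min. The labels gave no strain, sex or age, and the design of the Pak1 allele was not given in the sources used here. The samples were cells grown from tumours, so only RNA of cells that persisted in culture was measured.

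Type I interferons bind a receptor whose kinases activate transcription factors that bind a DNA element called the interferon-stimulated response element (ISRE) in front of the effector genes. IFIT proteins (Ifit1, Ifit2, Ifit3) bind viral RNA or the translation factor eIF3, and Rsad2 (viperin) makes a nucleotide that stops viral RNA synthesis. Mx1 and Mx2 are dynamin-like GTPases that block viral replication, and Isg20 is an exonuclease that degrades RNA. Bst2 (tetherin) holds budding virions at the cell surface, and Eif2ak2 (PKR) is a kinase that is switched on by double-stranded RNA and phosphorylates eIF2 alpha, which slows translation.

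Promoter sequence was not used to select the genes. In the RefSeq promoter table (GRCm38.p6; 250 bases before to 50 bases after each start), 7 of the 9 genes had an entry, with 10 promoter windows among them, and Mx1 and Mx2 had none. The ISRE core was searched as GAAANNGAA on both strands, where N is any base. It was found in 5 of the 7 genes (Ifit1, Ifit3, Rsad2, Bst2 and Eif2ak2), against 9.76% of all 27025 genes in that table. In the 150 bases just before the start it was found in 4 of the 7 genes, against 4.61% of all genes. Shown first are the stretches that end at the base before the start, 5' to 3' on the strand of the gene, for the 4 genes with a match before the start. Capitals mark the ISRE core, which reads TTCNNTTTC where it lies on the other strand.
Ifit1: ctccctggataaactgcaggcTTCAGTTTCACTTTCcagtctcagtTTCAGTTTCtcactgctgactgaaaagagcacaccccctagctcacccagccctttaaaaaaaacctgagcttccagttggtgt
Ifit3: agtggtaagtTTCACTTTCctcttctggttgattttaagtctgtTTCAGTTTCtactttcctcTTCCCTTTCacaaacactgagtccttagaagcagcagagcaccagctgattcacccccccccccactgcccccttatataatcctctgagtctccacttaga
Rsad2: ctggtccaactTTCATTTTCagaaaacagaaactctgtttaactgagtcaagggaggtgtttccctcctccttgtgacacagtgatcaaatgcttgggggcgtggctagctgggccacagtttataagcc
Bst2: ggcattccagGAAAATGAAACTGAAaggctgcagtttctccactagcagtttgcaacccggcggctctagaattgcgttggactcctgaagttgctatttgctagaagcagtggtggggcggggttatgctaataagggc

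The Ifit1 stretch (chr19:34640759-34640888, plus strand) held 3 matches, at -109, -103 and -84 from the start, all on the other strand, and the first 2 of them overlap. The Ifit3 stretch (chr19:34583364-34583528, plus strand) likewise held 3 matches on the other strand, at -155, -121 and -102. Rsad2 (chr12:26456453-26456582, minus strand) had 1 match at -119, and Bst2 (chr8:71537473-71537612, minus strand) had 2 overlapping matches at -130 and -124. In Eif2ak2 the 2 matches, GAAAACGAA and GAAACAGAA, lay after the start, at +19 and +25. The remaining genes with an entry, Ifit2 and Isg20, had no match in any of their 2 and 3 windows. Their first listed promoters, chr19:34550564-34550693 and chr7:78913294-78913423, both on the plus strand, are given for comparison.
Ifit2: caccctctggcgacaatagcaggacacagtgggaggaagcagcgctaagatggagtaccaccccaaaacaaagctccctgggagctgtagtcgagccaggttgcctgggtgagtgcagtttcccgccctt
Isg20: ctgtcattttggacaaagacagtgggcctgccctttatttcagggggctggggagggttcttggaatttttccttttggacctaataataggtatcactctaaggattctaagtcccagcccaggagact

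A gamma-interferon activated site (GAS) core, searched as TTCNNNGAA, was found in 4 of the 7 genes (Ifit2, Isg20, Bst2 and Eif2ak2), against 9.55% of all genes. The first ISRE match of Bst2 shares bases with its GAS match at -136. A match says only that these letters lie in the window, and the absence of one says only that they do not.

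**Figure D1:**
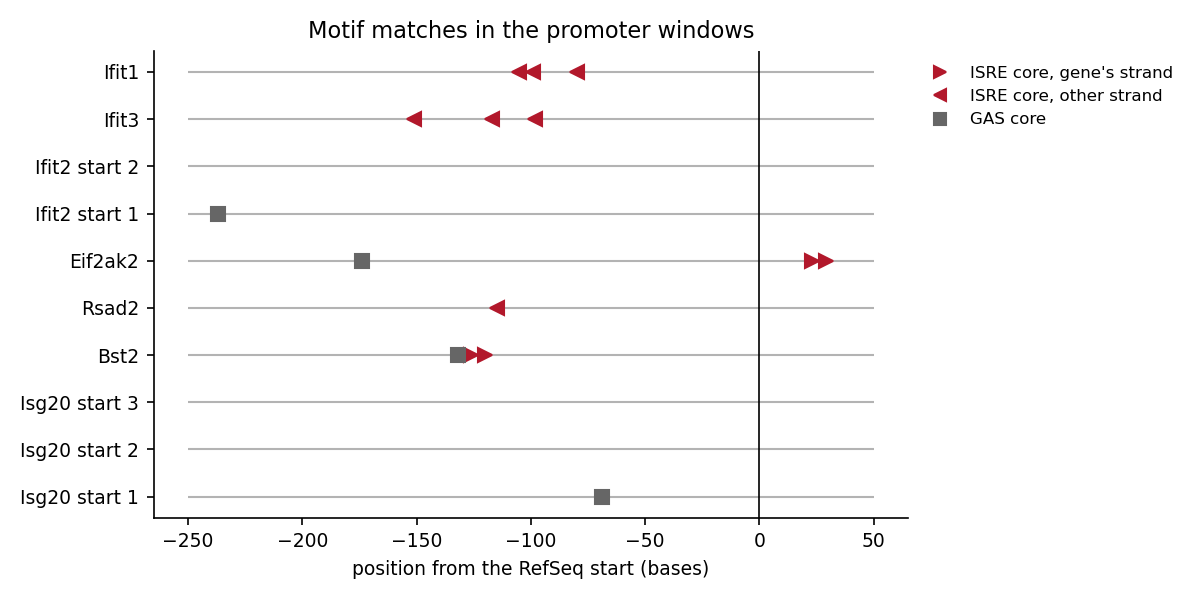
Positions of the ISRE core (triangles, pointing right on the strand of the gene and left on the other) and the GAS core (squares) in the 10 promoter windows of 7 genes, in bases from the RefSeq start. Ifit1 and Ifit3 each hold 3 ISRE matches before the start, those of Eif2ak2 lie after it, and the windows of Ifit2 and Isg20 hold none.

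The Pak1 probe itself did not separate the groups in the direction of the labels. Its normalized intensity (log2) was 12.21 and 12.25 under the Pak1-/- label and 12.04 and 12.04 under the Pak1+/+ label, a difference of 0.19 (limma SE 0.07, adjusted p = 0.07). Whether the probe lies in the deleted part of the gene was not given in the sources used here, so the samples are given below under their labels. Median spot intensity ran from 322 to 331 over the 4 arrays, and 62.2% to 70.4% of probes were well above background. On the single slide, positions 1 and 2 held the Pak1-/- samples and positions 3 and 4 the Pak1+/+ samples, so position and genotype cannot be told apart. Of 12 epithelial markers, 11 were well above background on all 4 arrays, and their summed intensity was 1080000 to 1220000 under the Pak1-/- label and 1170000 to 1210000 under the Pak1+/+ label. Of the 12, 5 were higher and 2 lower under the Pak1-/- label (41.7% and 16.7%, against 22.8% and 28.2% of all genes), Krt14 by 2.83 (limma adjusted p = 7.7e-05) and Krt7 with -1.10 among them. Of 21 leukocyte markers, 8 were above background on no array (Cd3g, Ms4a1, Lyz2, Tyrobp, Laptm5, Cd2, Ncr1 and Itgax), and the summed intensity was 241000 to 267000 against 241000 to 258000. Siglech and Itgam were the brightest of them on all arrays and make up most of that sum. Of the 10 leukocyte markers tested, 5 were lower under the Pak1-/- label (Ptprc, Cd4, Adgre1, Fcer1g and Coro1a; 50% against 28.2% of all genes) and the others were not called. Summed fibroblast markers were 1800 to 2980 under the Pak1-/- label and 638 to 1190 under the Pak1+/+ label, with Col3a1, Pdgfrb, Dcn and Lum above background on no array. Postn, a matrix gene among them, read 10.84 and 9.66 against 6.31 and 6.22 on the log2 scale. It was not well above background under the Pak1+/+ label, so its rise is a bound (at least 10.4-fold). Postn and Col1a1 were the 2 of 5 tested that were higher (40% against 22.8% of all genes). Summed endothelial markers were 9870 to 10300 against 9320 to 10700, with 3 of 7 above background on no array. The part of the fibroblast difference in the results below was not tested.

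All 10 probes passed the filter on dim probes, none was saturated, and 9 of the 9 genes had groups that did not overlap, as did 77.6% of all genes tested. By the brightest probe of each gene, 8 were higher under the Pak1-/- label and 1 (Isg20) was lower. In RNA of a whole culture, fewer cells that express a gene and less RNA per cell cannot be told apart. At an adjusted p of 0.05, 51.0% of the 22014 genes tested were called, 22.8% higher and 28.2% lower. That balance depended on the scaling, since 44.9% of the probes called were higher here and 52.4% with cyclic loess. The median log2 difference was 3.70 over the 9 genes and -0.05 over all genes tested. By measured values 7 of the 9 genes, and 0.968% of all genes, were at least 8-fold higher. With Rsad2 and Mx1, which were not above background under the Pak1+/+ label, at their bounds, the count was 6 of 9.

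**Figure D2:**
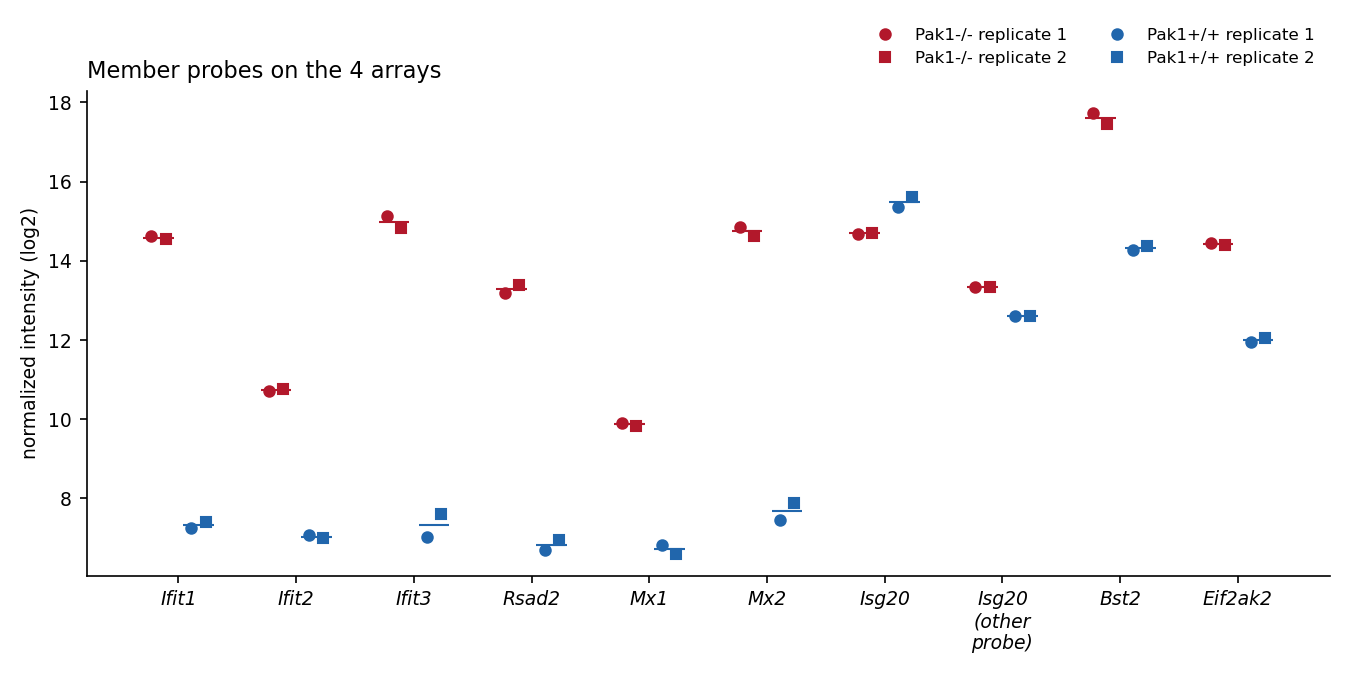
Normalized intensity (log2) of the 10 probes on each of the 4 arrays, with circles for replicate 1, squares for replicate 2 and short lines at group means (red, labelled Pak1-/-; blue, labelled Pak1+/+). The groups do not overlap for any probe, and the brighter of the Isg20 probes is the one that is lower under the Pak1-/- label.

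The IFIT genes were all higher under the Pak1-/- label, by unequal amounts. Ifit1 (probe A_51_P327751, mm9 chr19:34723796-34723855, plus strand) read 14.63 and 14.55 under the Pak1-/- label and 7.25 and 7.42 under the Pak1+/+ label. The difference was 7.25 (limma SE 0.09), or 153-fold, with 144-fold to 260-fold over the settings tried. Ifit3 (A_51_P359570, chr19:34663105-34663164, plus strand) read 15.14 and 14.84 against 7.04 and 7.61, a difference of 7.66 (SE 0.22), or 202-fold (166-fold to 414-fold over the settings). Both genes were near the dim end of the scale under the Pak1+/+ label and still well above background on all 4 arrays. Ifit2 (A_51_P161021, chr19:34650244-34650303, plus strand) read 10.70 and 10.76 against 7.08 and 6.99, a difference of 3.70 (SE 0.07), or 12.96-fold, and was well above background on 3 arrays. Its fold ran from 12.6 to 29.5 over the settings, the highest with the processed signal.

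Rsad2, whose protein makes the chain terminator, read 13.18 and 13.38 under the Pak1-/- label and 6.69 and 6.96 under the Pak1+/+ label (A_52_P670026, chr12:27127859-27127918, minus strand). It was not well above background on either Pak1+/+ array, so only a bound could be set. In the main setting its intensity was at least 85.2-fold higher under the Pak1-/- label. Its measured fold ran from 79.7 to 308 over the settings tried, so this bound holds for the main setting only. The Mx GTPases were both higher under the Pak1-/- label. Mx1 (A_55_P2118441, chr16:97668644-97668703, minus strand) read 9.91 and 9.84 against 6.83 and 6.61, not well above background under the Pak1+/+ label, and was at least 7.69-fold higher. Its measured fold ran from 8.26 to 26.4 over the settings. Mx2 (A_51_P514085, chr16:97782327-97782386, plus strand) read 14.85 and 14.64 against 7.47 and 7.88, a difference of 7.07 (SE 0.17), or 134-fold (116-fold to 225-fold over the settings). The GRCm38.p6 gene table lists both Mx1 and Mx2 as transcribed pseudogenes, so the probes measure their RNA and say nothing of a protein.

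Bst2 and Eif2ak2 were already bright under the Pak1+/+ label. Bst2 (A_51_P169693, chr8:74058603-74058662, minus strand) read 17.74 and 17.46 under the Pak1-/- label and 14.27 and 14.38 on the others, a difference of 3.27 (SE 0.12), or 9.67-fold. Bst2 is also a surface antigen of plasmacytoid dendritic cells in mice, and whether such cells were in the cultures was not tested. Siglech, another marker of those cells, was bright on every array (17.91 and 17.59 against 17.52 and 17.47, adjusted p = 0.152 in limma), while Ptprc, the pan-leukocyte antigen, was dim and lower under the Pak1-/- label (7.15 and 7.14 against 7.59 and 7.60, adjusted p = 0.0056). Eif2ak2 (A_52_P559919, chr17:79252168-79252227, minus strand) read 14.44 and 14.40 against 11.95 and 12.05, a difference of 2.42 (SE 0.08), or 5.37-fold. It had the smallest difference among the 8 genes that were higher.

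Isg20 was the exception, and its probes disagreed in sign. The brighter probe (A_66_P112573, chr7:86065136-86065195, plus strand) read 14.69 and 14.71 under the Pak1-/- label and 15.36 and 15.61 under the Pak1+/+ label, a difference of -0.79 (SE 0.11). The other probe (A_55_P2173892, chr7:86064960-86065019, plus strand) read 13.33 and 13.34 against 12.61 and 12.61, a difference of 0.72 (SE 0.07). The groups did not overlap for either probe, and the mean over both gave -0.03. The probes lie 116 bases apart, and the files list different Ensembl transcripts for them although they share their RefSeq mRNAs. The first 30 bases of each, printed to show that they read separate stretches, are as follows.
Isg20, brighter probe: ccgcaatgtgtaaaaccaagaacactcccc
Isg20, other probe: aagatgccagggccacaatggagctctaca

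Which Isg20 transcripts each probe detects was not tested. Isg20 also had 3 starts in the RefSeq table, more than any other of the 7 genes with an entry.

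Ordered by difference, Ifit3, Ifit1 and Mx2 stood at 7.07 to 7.66, followed by Ifit2 at 3.70, Bst2 at 3.27, Eif2ak2 at 2.42 and Isg20 at -0.79. Rsad2 and Mx1 have only bounds and hold no exact place in this order. The bound of Rsad2 (at least 85.2-fold) lies above Ifit2 (12.96-fold), and that of Mx1 (at least 7.69-fold) lies above Eif2ak2 (5.37-fold). Over the settings tried, Ifit2 ranged from 3.65 to 4.88 and Ifit3 from 7.37 to 8.69, while Bst2 ranged from 3.08 to 3.42 and Eif2ak2, bright in both groups, from 2.37 to 2.50. No member changed direction in any setting, although the brighter Isg20 probe averaged with the other came to nearly 0.

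**Figure D3:**
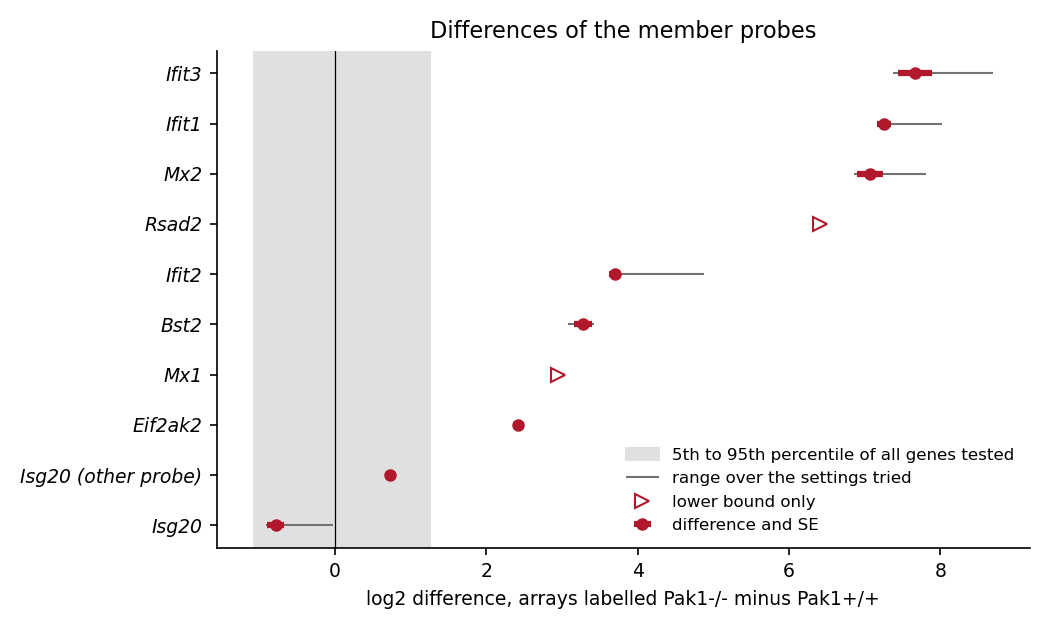
Log2 difference of each member probe (points, with limma SE as thick bars) and its range over the settings tried (thin lines), with Rsad2 and Mx1 at their lower bounds (open triangles), beside the 5th to 95th percentile of all 22014 genes tested (grey, -1.07 to 1.26). The probes of Isg20 lie on either side of 0 within the grey band, and the other 8 genes lie above it.

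Within the groups, the members also moved between replicate arrays. Under the Pak1+/+ label, 7 of the 9 genes read higher in replicate 2 than in replicate 1, with a median of replicate 1 minus replicate 2 of -0.17 and a range of -0.57 (Ifit3) to 0.22 (Mx1). Their median absolute difference was 0.22, against 0.08 over all genes and 0.13 over the 5369 genes with a group mean under 8, where 6 of the 9 members lay. Of all genes, 48.6% read higher in replicate 2. The 24 other antiviral effectors that were higher under the Pak1-/- label had the same lean in 18 cases, with a median of -0.08. Under the Pak1-/- label, 6 of the 9 genes read higher in replicate 1, with a range of -0.20 to 0.30 and a median absolute difference of 0.08 against 0.11 over all genes. These replicate differences are at most 0.57 on the log2 scale and rest on 1 pair of arrays per group, so they are values without a test.

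Paralogues and enzymatic relatives of the members were called more often higher than lower. Of 13 relatives listed, 12 were tested, of which 6 rose, 2 fell and 4 did not pass the limma test (50% higher and 16.7% lower, against 22.8% and 28.2% of all genes), with a median difference of 0.38. The IFIT copies beside the members were among those that rose. Ifit3b, a near-identical copy of Ifit3, read 14.17 and 14.07 against 6.60 and 6.70, at least 153-fold higher (adjusted p = 4.2e-05). Its dimmer probe gave a smaller difference of 3.68, and whether its probes and that of Ifit3 read each other's RNA was not tested. Ifit1bl1 was at least 2.98-fold higher (adjusted p = 0.0071). Ifit3b and Ifit1bl1 were not well above background under the Pak1+/+ label. They passed the filter only through the arrays where they were high, so their p-values rest on dim readings in the other group. With the filter on all 4 arrays, 4 relatives were higher. Dnm3, a dynamin related in fold to the Mx proteins, was higher by 0.90 (adjusted p = 0.0040). Eif2ak1, the haem-regulated eIF2 alpha kinase, was lower with a log2 difference of -1.19 (adjusted p = 0.0010), opposite to Eif2ak2, and Dnm1 was lower with -0.57 (adjusted p = 0.0063). The other Dnm1 probe gave -0.02 (adjusted p = 0.836), and with the mean over probes only 1 relative was lower.

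Most other antiviral effectors tested rose. Of 40 listed, 34 were tested, and 24 rose (70.6%, against 22.8% of all genes), 4 fell and 6 did not pass, with a median difference of 1.31. Ifi44 rose most, from 8.13 and 8.60 under the Pak1+/+ label to 15.50 and 15.29, a difference of 7.03 (limma adjusted p = 8.4e-05). Lgals3bp, a secreted glycoprotein, rose by 6.15 and Rtp4 by 5.41. The 4 that fell were Plscr1 (-0.78), Ifitm5 (-0.49), Marchf8 (-0.36) and Ifitm7 (-0.30). The adjusted p of these 4 ran from 0.0021 to 0.037, and the count of 4 became 1 or 2 whenever an array was left out.

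Of the genes listed for type I interferon signalling, 10 rose and no interferon gene was called. Of 9 interferon genes listed, 8 were named on the array and 6 were tested, all between 6.67 and 8.38 on every array. In limma 0 of these 6 were called, and 1 had an unadjusted p under 0.05. Ifnb1, which like the Eif2s2 probes given further on was chosen for naming after its values were seen, read 7.958 and 7.997 under the Pak1-/- label and 7.935 and 6.665 under the other (adjusted p = 0.241), so its groups were set apart mainly by 1 array. The interferon alpha genes are close copies of each other, so their probes are uncertain. Of all 25 genes listed for type I interferon signalling, 22 were tested, of which 10 rose, 2 fell and 10 did not pass (45.5% higher and 9.09% lower, against 22.8% and 28.2% of all genes), with a median of 0.39. The largest rises were those of Usp18, which restrains the receptor (7.13, adjusted p = 8.1e-05), Irf7, an interferon-inducible factor (6.09, adjusted p = 4.2e-05), and Irf9, a DNA-binding factor of the response (2.82, adjusted p = 0.00024). Stat2, a transcription factor of the same response that was chosen for naming after its values were seen, was higher by 2.77 (adjusted p = 0.00030). The 2 that fell were the inhibitors Socs3 (-1.60, adjusted p = 0.00037) and Ptpn2 (-0.56, adjusted p = 0.0031). Inhibitors did not all fall, since Usp18 rose. Of the other Ptpn2 probes, the brighter gave -0.69 (adjusted p = 0.0021 in limma) and the dimmer -0.28 (adjusted p = 0.108).

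Genes around Eif2ak2 in the eIF2 alpha branch, its regulators, its substrate and the genes downstream, were called in both directions. Of 26 genes of the eIF2 alpha branch, all tested, 6 rose and 7 fell (23.1% and 26.9%, near the 22.8% and 28.2% of all genes), with a median of -0.07. The largest rises were those of Nupr1 (2.47), Ppp1r15a (1.44), which returns eIF2 alpha to its active form, and Atf3 (1.20). The largest falls were those of Psat1 (-1.17), Eif2s3x (-0.96) and Eif2s1, the gene of eIF2 alpha itself (-0.85). The adjusted p of these 6 genes ran from 0.00013 to 0.0080. The probes of Eif2s2 disagreed in size, with -0.20 for the brighter (adjusted p = 0.0703) and -1.56 for the other. Atf4 and Ddit3, the central factors of the branch, which were chosen for naming after their values were seen, had differences of -0.11 and 0.15 by their brightest probes (adjusted p = 0.453 and 0.235), while the dimmer Atf4 probe was lower with -0.41 (adjusted p = 0.0106). An array of RNA does not read phosphorylation, so the activity of PKR was not measured.

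Of the genes of eIF3, the factor that IFIT proteins bind, more fell than rose. Of 14 listed, 13 were tested, 1 rose (Eif3f, 0.35) and 5 fell (Eif3j1 -0.77, Eif3b -0.67, Eif3e -0.31, Eif3a -0.29 and Eif3m -0.28), or 7.69% and 38.5% against 22.8% and 28.2% of all genes, with a median of -0.13. The adjusted p of Eif3j1 and Eif3b was 0.0017 and 0.0024, and that of the other 4 ran from 0.023 to 0.046. The call of Eif3f was lost with 3 of the 4 arrays when they were left out in turn, and 2 or 3 subunits were lower then.

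**Figure D4:**
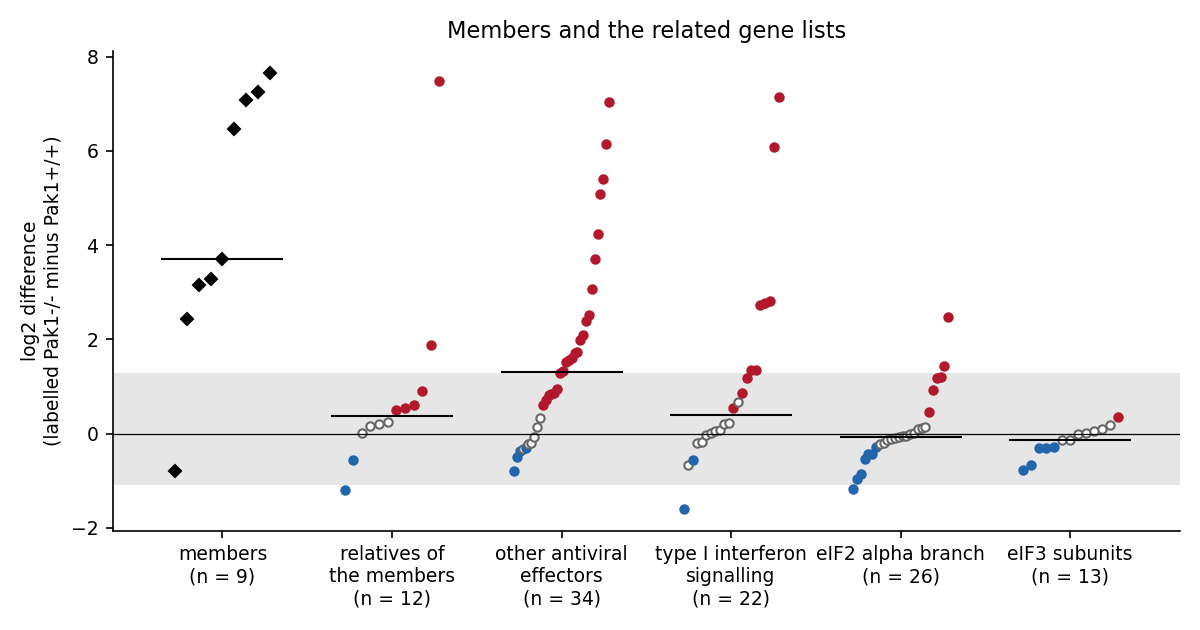
Log2 difference of each gene tested in the 9 members and 5 related lists (red, higher; blue, lower; open, not past an adjusted p of 0.05; black diamonds, members, not tested; genes with only a bound stand at their measured difference), with list medians as lines and the 5th to 95th percentile of all genes in grey. Medians run from 3.70 for the members and 1.31 for the other antiviral effectors to -0.07 and -0.13 for the eIF2 alpha branch and eIF3.

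The members lie at 7 places in the genome, and their neighbours did not all share their direction. The 3 nearest protein-coding genes with a tested probe on each side gave 39 genes, of which 17 were higher and 12 lower in the limma fit (43.6% and 30.8%, against 22.8% and 28.2% of all genes), with a median of 0.18. Of these, 5 also belong to a list above (Ifit1bl1, Ifit3b, Ifit1bl2, Cmpk2 and Aen). In the remaining 34, 13 were higher, 12 lower and 9 not called, with a median of 0.05. Cmpk2, a nucleotide kinase that lies head to head with Rsad2, averaged 12.06 ± 0.05 against 6.97 ± 0.04 (SD, n = 2), a difference of 5.09 (adjusted p = 4.2e-05). Rnf144a, on the other side of Rsad2, was lower (-1.19, adjusted p = 0.0013). Bace2, beside Mx1, was higher by 3.74 (adjusted p = 0.00011). Around Bst2, Tmem221 and Plvap were lower with -1.11 and -1.08 (adjusted p = 0.0017 and 0.0015). The dimmer probes of Cmpk2, Bace2 and Plvap gave differences of smaller size, 3.98, 2.59 and -0.50.

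**Figure D5:**
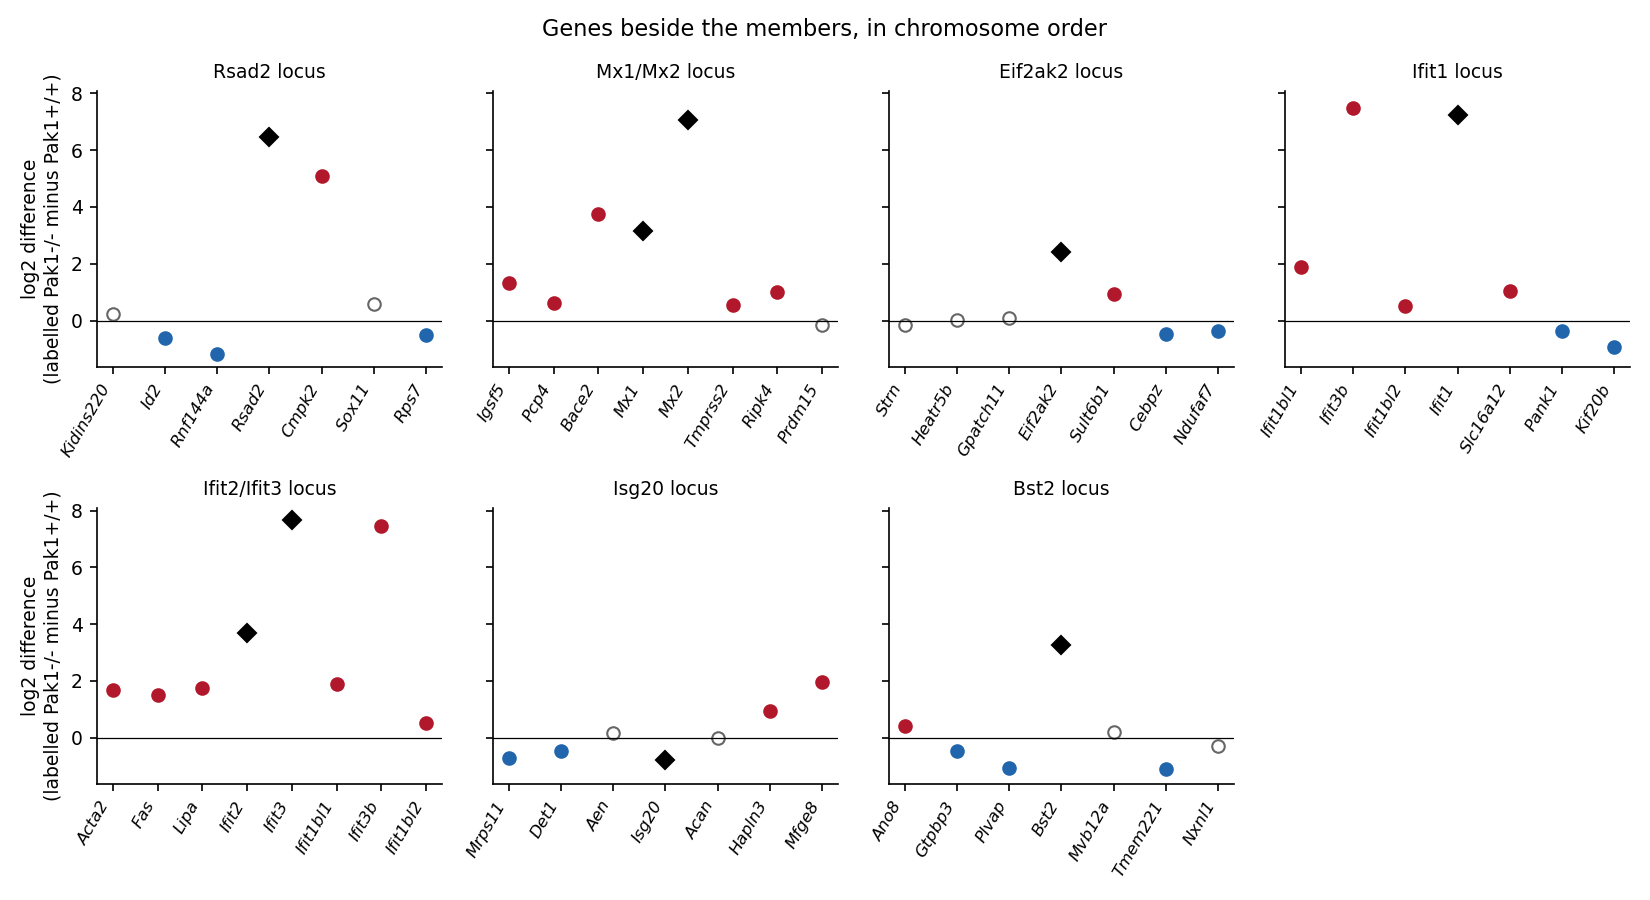
Log2 difference of the members (black diamonds) and of their 3 nearest tested genes on each side, in chromosome order at each of the 7 places (red, higher; blue, lower; open, not past an adjusted p of 0.05; genes with only a bound at their measured difference). Rsad2 stands between Cmpk2, which was higher, and Rnf144a, which was lower, Bst2 has Plvap, which was lower, beside it, and the Ifit copies beside Ifit1 and Ifit3 were higher.

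The genes whose centred profile over the 4 arrays lay nearest to the mean of the 9 members were Gbp2, Gdf5, Dcaf12l1, Slc38a1 and Ccl5, at Euclidean distances of 0.089 to 0.14 log2 units. Gbp2, an interferon-inducible GTPase, read 15.62 and 15.52 under the Pak1-/- label and 11.04 and 11.30 on the others, and Ccl5, a chemokine, read 14.26 and 14.36 against 9.74 and 9.84. Dcaf12l1 was not well above background under the Pak1+/+ label, so its difference is a bound (at least 15.1-fold) and its distance is uncertain. With 2 groups of 2 arrays this likeness reflects mainly the size of the difference between groups, which ran from 4.399 to 4.52 for the other 4 genes.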

How the data were processed

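Total RNA (0.5 ug, low-input linear amplification) was measured on 4 arrays. The deposited scanner output gives the intensity of each spot on a linear scale, from Feature Extraction 9.5.3.1 per the file headers, with no normalization between arrays. A second deposited table by the authors holds normalized log2 values (24008 of 39485 rows filled), used only as an alternative. Here the normexp background correction that the study's methods name was run with limma 3.58.1 under R 4.3.3, with an offset of 50 that was chosen here because the sources used give none. Control spots were left out, 43020 spots remained, and values were quantile normalized. Spots flagged as outliers were set aside and spots of a probe averaged. Of 39429 probes, 27229 (69.1%) were well above background on at least 2 arrays and were kept. Groups were compared with lmFit and eBayes, two-sided, with no covariate and Benjamini-Hochberg adjustment over all kept probes at 0.05. The brightest probe stood for a gene. A fold is 2 to the power of the log2 difference. Where every array of a group was not well above background, the bound set the bright group's mean against the dim group's mean of, per array, the higher of the lowest signal well above background and the probe's own.

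The members and the lists (relatives, other antiviral effectors, type I interferon signalling, eIF2 alpha branch, eIF3, chromosomal neighbours, 4 marker lists) were chosen with earlier results of these data known. Named were all members and, of each list except the marker lists, the 3 largest called differences in each direction and every gene of a direction with 5 or fewer; the 5 nearest profiles were also named. Marker lists are given by counts and sums, and the markers named with values were chosen after these were seen. Of 32334 probes with an accession, 26055 matched the GRCm38.p6 gene table, and the rest kept the array's name. A gene of the type I interferon signalling list is counted but not reported by name here. Probe positions are mm9, as in the files. The fit was tested on simulated data. With 2 against 2 arrays an exact permutation test cannot go below p = 0.333, so limma borrows the spread across probes (2 residual and 2.62 prior degrees of freedom). P-values measure the spread between 2 tumours per group, and the number of arrays limits the precision. Alternatives covered the offset, the scaling, the deposited table, the filter, the mean over probes, the threshold, a replicate block, each array left out and the promoter window. Figures were drawn with matplotlib 3.10.9 and tables made with pandas 2.3.3.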

Additional observations from a re-analysis of the deposited data

How the results depend on the processing

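The 9 members kept their direction in every setting that gave a value. Their median difference was 4.88 with the processed signal scaled to its 75th percentile, 4.34 with a normexp offset of 0 and 5.17 with the filter on all 4 arrays, against 3.70. The last filter left Ifit2, Rsad2 and Mx1 without a value, because they were dim under the Pak1+/+ label. Probes past the threshold numbered 14132, and 8878 at an adjusted p of 0.01. Other antiviral effectors that fell numbered 4, and 2 with cyclic loess, with no filter and with the replicate block, 1 at an adjusted p of 0.01, and 1 to 2 with an array left out. The eIF3 subunit that rose (1) became 0 with the processed signal, with normexp scaled to the 75th percentile and at an adjusted p of 0.01, and 0 to 1 with an array left out. The eIF3 subunits that fell numbered 5, and 2 with cyclic loess, 3 with the replicate block, 2 at an adjusted p of 0.01, and 2 to 3 with an array left out. Relatives that fell numbered 2, and 1 with the mean over probes. Those that rose numbered 6, and 4 with the filter on all 4 arrays and 9 with cyclic loess. Chromosomal neighbours that rose numbered 17, and 13 and 19 in these 2 settings. The cause of these moves was not tested, apart from fewer arrays or probes where a setting removes them. Replicate numbers are shared only as names (correlation of replicate differences between groups -0.028), and the replicate block gave 13211 probes past the threshold. Genes listed for interferons and the dim IFIT and MX probes are limited by their signal over background.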
